A study of Homo sapiens with 3 samples.

Results

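The HOX genes of 1205Lu melanoma cells were followed through 3 culture states. The members were all array probes named for a gene of the HOXA, HOXB, HOXC or HOXD cluster, which gave 39 genes on 52 probes out of 30982 gene names and 41000 probes. These were 11 HOXA genes on 15 probes, 10 HOXB genes on 17, 9 HOXC genes on 11 and 9 HOXD genes on 9. All 39 human HOX genes of the RefSeq gene table had a probe.

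HOX genes encode transcription factors that bind DNA through a homeodomain and give cells a position along the head to tail axis of the embryo. They lie in 4 clusters, in which genes of low paralogue number act towards the head and genes of high number towards the tail and the ends of the limbs. The set of HOX genes that a cell transcribes is often kept in adult cells and in cell lines, with Polycomb and Trithorax proteins holding genes off and on, and the TALE proteins (PBX, MEIS and PKNOX) binding DNA beside HOX proteins.

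1205Lu is a human metastatic melanoma line, obtained from a lung metastasis that WM793 cells formed in a mouse. Total RNA was hybridised to 3 Cy3 arrays, 1 for each state. Original monolayer (OM) cells had grown for 14 days in RPMI-1640 with 10% FCS. Melanoma bodies (MB), which are adherent 3D spheroids, had formed over 14 days in human embryonic stem cell (hESC) medium, made of DMEM F-12 and 20% Knock Out serum replacement. New monolayer (NM) cells came from bodies of 14 days that were returned to the RPMI medium for 10 days, and the bodies that remained were taken off before RNA was prepared. All the cells were of this single line.

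Because there was 1 array for each state, no test across samples was possible, and every difference below has no replicate check. Signals are given unscaled, in arbitrary units (a.u.), and ratios and folds after scaling to 3 housekeeping genes (GAPDH, ACTB and HSP90AA1), whose mean was 0.978 of the OM value on MB and 0.877 on NM. Each HOX probe was a single spot. From other probes, printed in 10 spots, the log2 ratio of 2 single spots on MB and OM had an SD of 0.10 at 100 to 1000 a.u., 0.07 above 1000 a.u. and 0.25 at 20 to 100 a.u. This spread is technical and holds no difference between cultures. Signals of different probes are not set against each other, since brightness also depends on the probe. The small number of arrays limits how precise any value can be.

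The melanocyte lineage was visible on all arrays through SOX10, its neural crest transcription factor, at 6254 a.u. in OM, 9382 in MB and 4887 in NM. MITF, the melanocyte master regulator, gave 423, 718 and 551 a.u. in the same order. The pigment enzymes TYR and TYRP1 stayed at background on all 3 arrays. Of the 8 markers of this lineage, 6 were above it in OM and in MB, and 5 in NM. The matching shares of all genes were 68.9%, 69.7% and 63.5%. DCT and MLANA stayed under 100 a.u. throughout. DCT was at 66.7, 62.8 and 64.1 a.u., and MLANA at 31.3, 39.5 and 26.5 a.u., the last of these at background. Of the markers of other cell types, PTPRC (leukocytes), CDH5 (endothelium), KRT5 (keratinocytes), COL1A1 and LUM (fibroblasts) stayed at background throughout. Others of these lists were above it on every array, with KRT10 at 39103, 39383 and 32649 a.u., CD3E at 109.7, 84.8 and 87.4 a.u. and CD14 at 70.3, 60.2 and 58.7 a.u., and DCN was above it on MB alone. The endothelial marker PECAM1 was above it on MB only, at 87.7 a.u., and VWF was at 185, 390 and 95.6 a.u. on OM, MB and NM. Of the other markers, S100B was 2.95-fold and KRT14 2.85-fold higher in MB than in NM, and PDGFRB 2.50-fold higher in NM than in OM. The summed scaled signal of the 3 endothelial markers was 202 a.u. in OM, 498 in MB and 132 in NM, most of it from VWF, and its part in the HOX values was not tested.

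A few probe sequences are shown because they bear on how the HOX signals can be read. HOX genes resemble each other most in the homeobox, the stretch that encodes the homeodomain. The motif TGGTTNCA, which lies in the homeobox where it encodes part of the DNA-contacting helix, was searched on both strands. It was held by 4 of the 52 HOX probes and by 483 of all 41000 probes (1.18%). The 4 HOX probes with the motif, in capitals, were named for HOXA10, HOXB2, HOXB6 and HOXC10, each of which has a second probe without it:
HOXA10: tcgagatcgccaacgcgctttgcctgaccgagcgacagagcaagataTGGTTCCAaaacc
HOXB2: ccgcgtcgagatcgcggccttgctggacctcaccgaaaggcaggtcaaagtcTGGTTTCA
HOXB6: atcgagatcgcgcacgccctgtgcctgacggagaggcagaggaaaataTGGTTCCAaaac
HOXC10: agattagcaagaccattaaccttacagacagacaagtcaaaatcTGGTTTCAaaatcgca

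The HOXA10 and HOXB6 probes above were identical at 50 of the 59 bases in which they overlap (84.7%), the only one of 1326 pairs of HOX probes with 40 or more matching bases, against a median of 20. The deposited annotation (hg17 build) places the HOXB6 probe in its own cluster, at chr17:44028861-44028920 on the minus strand. It places the probe named HOXA10 in the HOXC cluster, at chr12:52709820-52709879 on the plus strand, 928 bases from the HOXC6 probe. The HOXB2 probe lies at chr17:43975925-43975984 on the minus strand and the HOXC10 probe at chr12:52669367-52669426 on the plus strand. The brightest HOX probe of the array, one of the pair for HOXA3, is shown for its base composition:
HOXA3: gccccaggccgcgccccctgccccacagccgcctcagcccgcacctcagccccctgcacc

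This HOXA3 probe lies at chr7:26923159-26923218 on the minus strand and is 81.7% G and C, where the other HOX probes ran from 30% to 60% with a median of 41.7%. Across the array, 42 other probes reached that share of G and C, and 21 of them (50.0%) were above 10000 a.u. on OM, against 9.11% of all probes. The signal of this probe is therefore given with that of the second HOXA3 probe throughout.

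The HOX code, meaning which HOX genes were well above background, was nearly the same in all 3 states, as were the calls of most genes of the array. Of the 39 genes, 29 were called so in OM (74.4%), 29 in MB (74.4%) and 28 in NM (71.8%). Over all genes the shares were 68.9%, 69.7% and 63.5%. The call was alike on all arrays for 37 genes (94.9%), while 89.8% of all genes were called alike. Of the 37, 28 were above background on every array and 9 on none. These were 71.8% and 23.1% of the HOX genes, beside 62.2% and 27.6% of all genes. The other 2 HOX genes changed call, 5.13% of the HOX genes beside 10.2% of all genes. Both lay close to background. HOXA6 was above background on OM alone, at 32.3 a.u., with 12.9 on MB and 9.88 on NM. HOXC5 was above background on MB alone, at 29.9 a.u., with 25.7 on OM and 18.9 on NM.

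The genes of the code lay mostly in 2 clusters. Of the HOXA genes, 10 of 11 were above background on every array, and of the HOXB genes 9 of 10, beside 62.2% of all genes. The HOXC cluster had 4 of 9 such genes (HOXC8, HOXC9, HOXC10 and HOXC13) and the HOXD cluster 5 of 9 (HOXD1, HOXD3, HOXD8, HOXD9 and HOXD13). The 9 genes that were not called on any array were HOXB1, which patterns the fourth hindbrain segment, HOXC4, HOXC6, HOXC11, HOXC12, HOXD4, HOXD10, HOXD11 and HOXD12. Their signals lay between 4.12 and 22.8 a.u. on the 3 arrays, so that no fold can be given for them. Each of these 9 genes had a single probe, so that its call rests on 1 spot per array. A single probe can miss a gene, as 1 of the 2 HOXA13 probes was at background on every array and the other above it. In the HOXD cluster the undetected genes HOXD10, HOXD11 and HOXD12 stood between HOXD9 and HOXD13, both of which were above background.

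**Figure D1:**
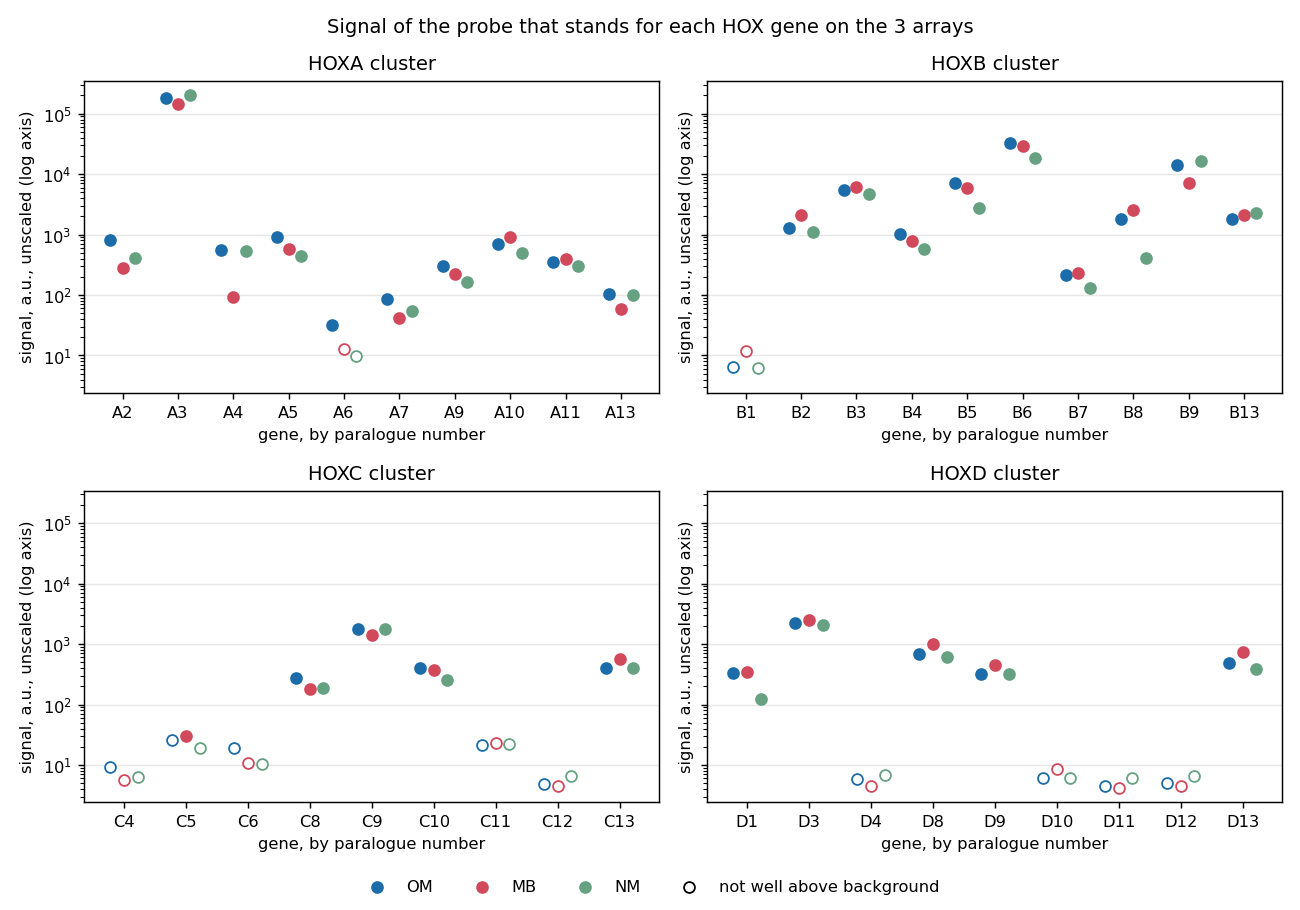
Unscaled signal (a.u., log axis) of the probe that stands for each HOX gene shown, in 4 panels by cluster and ordered by paralogue number, with 1 point for each array (OM, MB, NM) and hollow points where the probe was not well above background. The filled genes are the same on the 3 arrays apart from HOXA6 and HOXC5, and HOXA4 on MB (94.3 a.u.) stands well below its OM and NM points.

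How the levels moved was asked first for the bodies against the monolayer they came from. Of 30 HOX genes above background on at least 1 of the arrays, none was 2-fold or more higher in MB than in OM, beside 6.66% of all genes, and 3 (10.0%) were 2-fold or more lower, beside 4.65%. The 3 were HOXA2, HOXA4 and HOXA7, all of 1 cluster. Over all 30 genes the median log2 ratio was -0.12, with 14 genes higher and 16 lower (7 and 22 with scaling to spike-in probes), and over all genes it was 0.08. Of all genes, 43.3% were lower in MB. With so few genes past 2-fold, the count stands near the background.

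HOXA4, a gene expressed up to the hindbrain, gave 552.6 a.u. in OM, 94.3 in MB and 530.8 in NM. MB was the low array, and OM and NM lay close together. The signal was 5.73-fold lower in MB than in OM and 6.27-fold lower than in NM. HOXA4 was the only HOX gene past 5-fold between MB and OM, and 0.428% of all genes had a lower ratio. Among all genes, 0.554% fell 5-fold or more below OM in MB and 0.825% rose as far above it, and 1.49% lay 5-fold or more below NM. The fold stayed between 3.90 and 7.08 against OM, and between 4.21 and 7.09 against NM, under every other scaling and background setting tried. A single HOXA4 probe was on the array.

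The other HOXA genes of low number were also lower in MB than in OM. HOXA2, which gives the second branchial arch its identity, had 809 a.u. in OM, 276 in MB and 403 in NM. Its signal was 2.86-fold lower in MB than in OM, and NM lay between them. HOXA7 had 86.9 a.u. in OM, 42.3 in MB and 53.7 in NM, and the difference of MB from OM was 2.01-fold, which fell to 1.31-fold with normexp background correction and to 1.42-fold with no background subtraction. The HOXA7 signals were under 100 a.u. on every array.

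HOXA5, a regulator of lung development, gave 927 a.u. in OM, 578 in MB and 450 in NM. HOXA9, known for its part in myeloid leukaemia, gave 307, 220 and 162 a.u. in the same order. Both were highest on OM and lowest on NM. HOXA3, needed for the thymus and parathyroid glands, was at 178974 a.u. in OM, 142964 in MB and 201972 in NM with its GC-rich probe. The second HOXA3 probe read 5369, 2275 and 3582 a.u. Both were lowest on MB, by 0.29 on the log2 scale against OM with the first and by 1.21 with the second, so that HOXA3 would pass 2-fold with the second probe. Against OM, NM was higher with the first probe and lower with the second (log2 ratio 0.36 and -0.39).

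All 7 genes from HOXA2 to HOXA9 were lower in MB than in OM, with a median log2 ratio of -0.71, where 43.3% of all genes were lower. This split of the cluster was chosen after the values were seen. The 7 genes were lower in MB under each scaling and background setting tried, and each was also below the median of all genes. HOXA6 has only a bound in this comparison. The next genes of the cluster were not lower, except that HOXA11 turned lower with spike-in scaling. HOXA10, which shapes the uterus, was at 687 a.u. in OM, 911 in MB and 503 in NM, and HOXA11, a gene of the forearm and uterus, at 353, 398 and 307 a.u. HOXA13, a gene of the digits and the genital tract, was at 105 a.u. in OM, 59.8 in MB and 100.3 in NM, so that MB was again the low array. The second HOXA13 probe stayed at background on all 3 arrays.

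In the return from bodies to monolayer the 7 genes parted. Of the 6 measured on both arrays, 4 were lower in MB than in NM, and HOXA5 and HOXA9 were higher (log2 ratio of MB to NM 0.21 and 0.29). Of all genes, 47.7% were lower in MB than in NM. Against OM, NM was lower for HOXA2, HOXA5, HOXA7 and HOXA9 (log2 ratios from -0.85 to -0.50), while HOXA4 was at 0.13. The OM level was reached again in NM by HOXA4 and HOXA13 but not by HOXA2, whose NM signal was 1.76-fold below OM. The direction of HOXA4 and HOXA13 in NM against OM changed with the scaling.

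**Figure D2:**
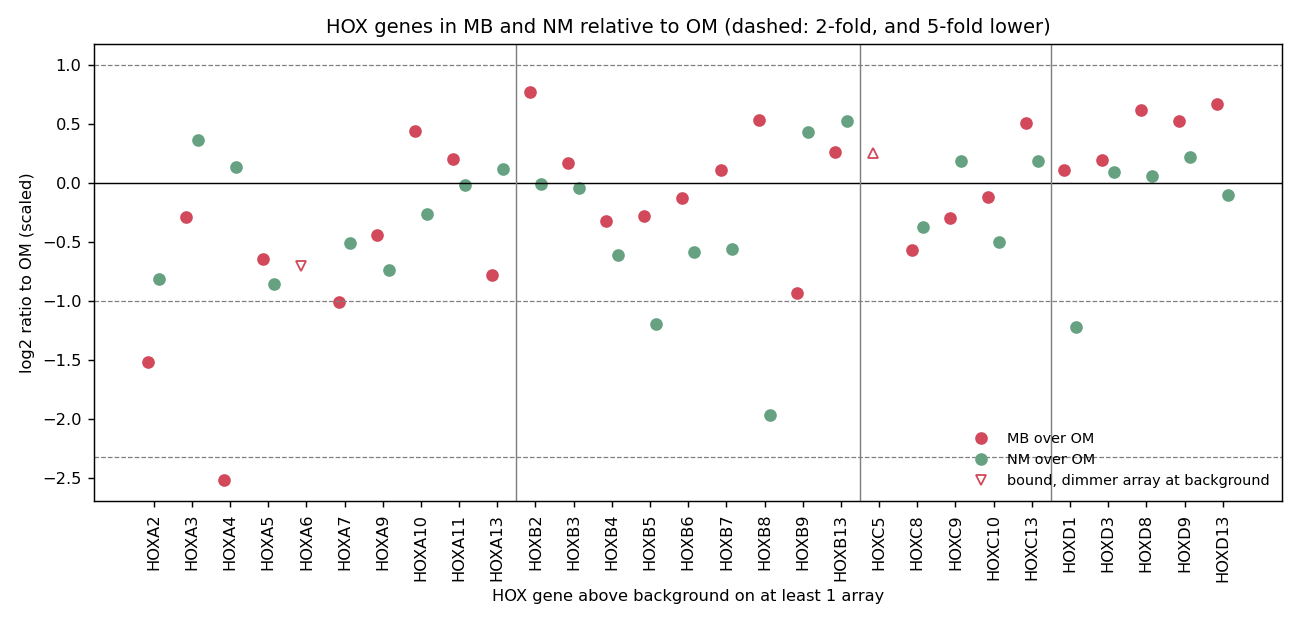
Log2 ratio to OM, after scaling to the housekeeping genes, of the HOX genes shown, each above background on at least 1 array, in cluster order, for MB (red) and NM (green); hollow triangles are bounds and dashed lines mark 2-fold in either direction and 5-fold lower. HOXA4 in MB is the lowest point (-2.52), HOXB8 in NM the next (-1.96), and all 5 HOXD genes lie above 0 in MB (3 with spike-in scaling).

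The HOXD genes went the other way in MB. All 5 genes above background were higher in MB than in OM, with a median log2 ratio of 0.52, where 56.7% of all genes were higher. All 5 were also higher than in NM, with a median of 0.56, where 52.3% of all genes were higher. None of the 5 reached 2-fold against OM. HOXD8 gave 676 a.u. in OM, 1015 in MB and 618 in NM. HOXD9 gave 319, 447 and 325 a.u., and HOXD13, which patterns the digits, 480, 747 and 391 a.u. In these 3 genes MB was the high array, and OM and NM differed by log2 ratios from -0.11 to 0.22. HOXD3 changed little, with 2239 a.u. in OM, 2500 in MB and 2091 in NM. With other scalings the low ratios turned. HOXD1 fell below OM in MB with the 75th percentile (-0.08), quantile (-0.03) and spike-in (-0.19) scalings, and HOXD3 with the spike-in scaling (-0.11), and HOXD3 fell below NM with the 75th percentile (-0.01) and spike-in (-0.07) scalings. HOXD8, HOXD9 and HOXD13 were higher in MB than in OM and NM under each setting tried. The spike-in scaling moved the median of all genes for MB over OM by 0.31, and all 5 genes stayed above that median, whereas with quantile normalization and with normexp correction HOXD1 lay below it.

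HOXD1, a gene of pain-sensing neurons, had a different course. Its signal was 328 a.u. in OM, 347 in MB and 124 in NM, so that NM was the low array. It was 2.51-fold higher in MB than in NM and 2.33-fold lower in NM than in OM. With normexp correction these folds were 1.88 and 1.85.

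Between the bodies and the new monolayer, 2 of 28 HOX genes (7.14%) lay at least 2-fold above NM in MB, beside 12.9% of all genes, and 2 lay as far below it, beside 10.3%. The higher genes were HOXB8 and HOXD1 and the lower ones HOXA4 and HOXB9. HOXB8 passed 5-fold upward, as did 1.91% of all genes. The median log2 ratio of MB to NM was 0.25 over the HOX genes and 0.04 over all genes, with 18 HOX genes higher and 10 lower in MB. Among all genes, 52.3% were higher in MB.

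Between NM and OM, 0 of 28 HOX genes were 2-fold or more higher in NM, beside 4.74% of all genes, and 3 (10.7%) were 2-fold or more lower, beside 6.11%. The 3 were HOXB5, HOXB8 and HOXD1, and none passed 5-fold, which 0.676% of all genes did upward and 0.465% downward. The median log2 ratio was -0.18 over the HOX genes, of which 10 were higher and 18 lower (4 and 25 with no scaling, 13 and 15 with the geometric mean), against 0.06 over all genes. The share of all genes lower in NM was 45.0%. The comparisons share arrays, so their values are not independent of each other.

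**Figure D3:**
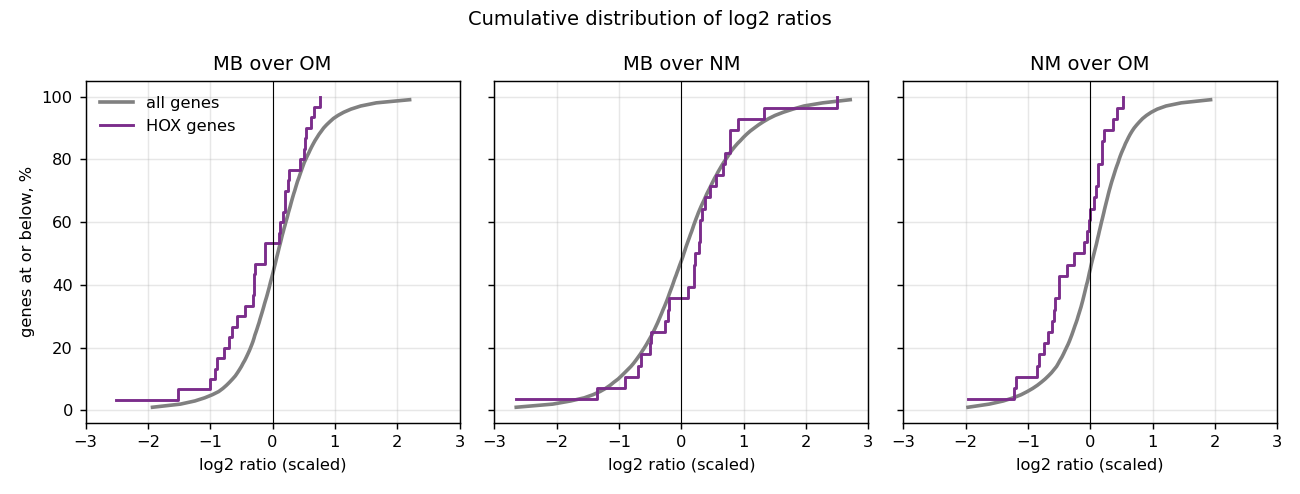
Cumulative share (%) of genes at or below each log2 ratio (scaled), for the HOX genes (purple steps, bounds included) and for all genes above background on at least 1 array of the pair (grey, drawn from the 1st to the 99th percentile), in the 3 comparisons. The HOX curve lies left of the grey curve at the middle for MB over OM (medians -0.12 and 0.08) and NM over OM (-0.18 and 0.06), and right of it for MB over NM (0.25 and 0.04).

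In the HOXB cluster the median log2 ratio of NM to OM was -0.56, and 7 of 9 genes were lower in NM (5 with the geometric mean of the housekeeping genes). The HOXA cluster had a median of -0.38, with 7 of 10 genes lower. Of all genes, 45.0% were lower in NM than in OM. HOXB8, a regulator of myeloid progenitors, gave 1828 a.u. in OM, 2588 in MB and 412 in NM. NM was the low array, 3.90-fold below OM and 5.64-fold below MB, and 0.988% of all genes had a lower ratio of NM to OM. The 2 folds ranged from 3.44 to 4.44 and from 4.98 to 6.29 over the other settings. HOXB5, which acts in neural crest cells of the gut, gave 7215 a.u. in OM, 5795 in MB and 2772 in NM, with NM 2.28-fold below OM.

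The genes on both sides of HOXB5 were lower in NM by less. HOXB4, known for expanding blood stem cells, was at 1015 a.u. in OM, 794 in MB and 583 in NM. HOXB6 was at 32104, 28753 and 18752 a.u. HOXB7, a homeobox gene studied in melanoma for its induction of basic fibroblast growth factor, was at 217, 228 and 129 a.u. In each of these genes NM was the low array, with log2 ratios to OM of -0.61 for HOXB4, -0.59 for HOXB6 and -0.56 for HOXB7. The second HOXB6 probe, the one with the homeobox motif, was lowest in NM too (log2 ratio -0.83). The second HOXB4 probe, at 62.4, 83.4 and 46.0 a.u., was lowest on NM as well but higher in MB than in OM.

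HOXB9 and HOXB13, at the tail end of the cluster, differed from these. HOXB9, a gene of the thoracic skeleton, gave 14118 a.u. in OM, 7246 in MB and 16682 in NM. MB was the low array, 1.91-fold below OM and 2.57-fold below NM. HOXB13, a prostate lineage gene, gave 1808, 2116 and 2287 a.u. with its brighter probe and 1479, 852 and 1509 a.u. with the other. The log2 ratio of MB to OM was 0.26 with the first and -0.76 with the second, the widest gap between 2 probes of 1 HOX gene. At the head end, HOXB2, which acts in the facial motor nucleus, gave 1284 a.u. in OM, 2136 in MB and 1118 in NM, the highest ratio of MB to OM among HOX genes (log2 ratio 0.77). The HOXB2 probe with the homeobox motif gave 120, 162 and 70.3 a.u., with log2 ratios of 0.46 for MB to OM and -0.58 for NM to OM, against -0.01 for NM to OM with the brighter probe. HOXB3 changed little, with 5485, 6009 and 4664 a.u.

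None of the HOXC genes passed 2-fold in any comparison. HOXC8, a gene of the thoracic spinal cord and ribs, gave 272 a.u. in OM, 179 in MB and 184 in NM. HOXC9, of the same region, gave 1788, 1424 and 1782 a.u. HOXC10, a gene of the lumbar spinal cord and hindlimb, gave 409, 368 and 254 a.u., and HOXC13, needed for hair and nails, 400.03, 557 and 399 a.u. The log2 ratios of MB to OM ran from -0.57 for HOXC8 to 0.51 for HOXC13, and HOXC10 was lowest in NM.

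The differences were also set against the technical spread of single spots. Of 28 HOX genes above background on both arrays, 23 differed between MB and OM by more than 2 SD of the spots in their signal range, 10 higher and 13 lower, as did 67.7% of all genes with a single spot. The same count was 25 for MB against NM, beside 77.7% of all genes, and 19 for NM against OM, beside 67.7%. Since most genes of the array passed this limit, and it holds no difference between cultures, the counts do not set the HOX genes apart.

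Genes with several probes showed where a value rests on the probe. Of the 11 such genes, HOXA10, HOXB4 and HOXB13 had probes whose ratio of MB to OM differed in sign, and HOXA3 had such a pair for NM against OM. In HOXA10 the odd probe was the one placed in the HOXC cluster. It gave 129 a.u. in OM, 101 in MB and 55.4 in NM, with a log2 ratio of NM to OM of -1.03, where the other HOXA10 probes were at -0.26 and -0.16. The HOXB6 probe that resembles it read 2978, 2547 and 1475 a.u., with a ratio of -0.83. The HOXC6 probe near its annotated place stayed at background, at 19.0, 10.6 and 10.4 a.u. Whether the HOXA10 probe binds transcripts of another HOX gene was not tested.

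**Figure D4:**
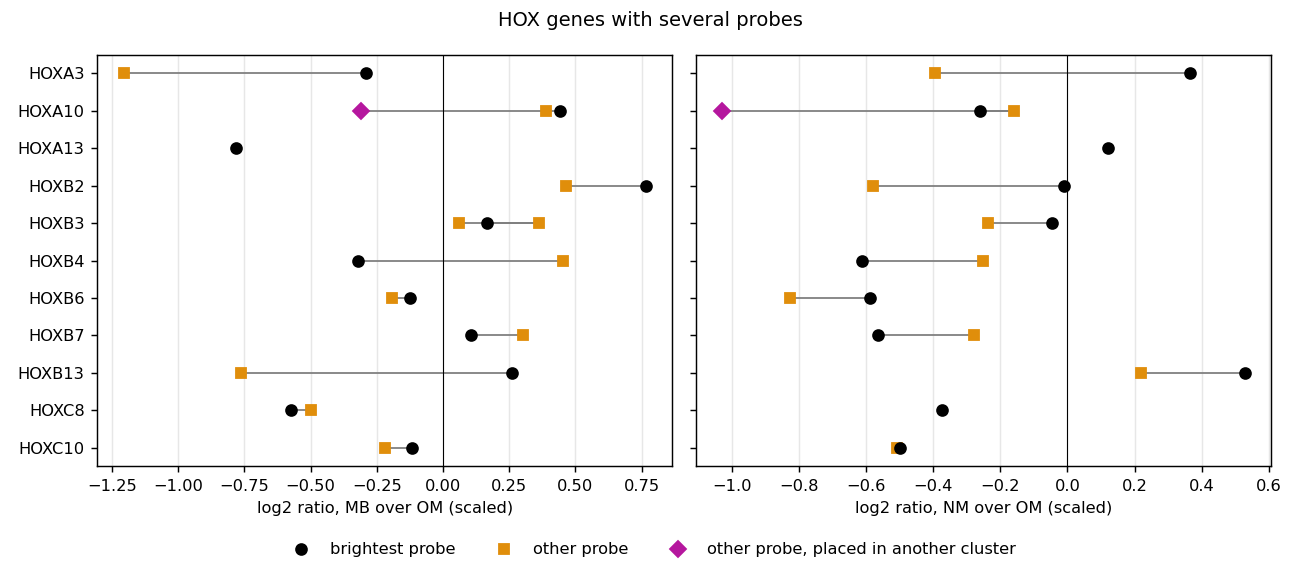
Scaled log2 ratio to OM of each probe of the 11 HOX genes with several probes, for MB (left) and NM (right), with the brightest probe in black, other probes in orange and the HOXA10 probe placed in the HOXC cluster as a magenta diamond; probes with no measured ratio are left out. HOXA3, HOXA10, HOXB4 and HOXB13 have the widest gaps for MB, up to 1.02 for HOXB13.

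The clusters also hold 23 probes that carry another name, 7 in HOXA, 7 in HOXB, 3 in HOXC and 6 in HOXD. In the head end of HOXA, 2 of them on the strand opposite to the HOX genes were lower in MB, as the HOX genes there were. BC031342, 804 bases from the HOXA2 probe, gave 5645 a.u. in OM, 1530 in MB and 3334 in NM, a fall of 3.61-fold from OM to MB. BQ354462, 489 bases from a HOXA3 probe, gave 3305, 1465 and 2037 a.u. and was 2.21-fold lower. The other opposite-strand probes up to HOXA9 did not pass 2-fold. LOC643903 gave 107, 87.7 and 75.7 a.u. (log2 ratio of MB to OM -0.25). THC2346713 gave 1127, 1109 and 1082 a.u. (0.01), and LOC285944 stayed at background. Further along, HOXA11S, the antisense transcript of HOXA11, gave 4145, 4583 and 3231 a.u. and did not pass 2-fold, like HOXA11 itself.

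Elsewhere in the clusters other such probes passed 2-fold, some with NM and some with MB as the low array. LOC401022, on the strand opposite to HOXD3 and 450 bases from its probe, gave 1066 a.u. in OM, 1271 in MB and 371 in NM, 2.52-fold lower in NM than in OM. Its second probe was at 227, 201 and 152 a.u. PRAC, a small gene beside HOXB13, gave 1692, 1551 and 483 a.u. and was 3.08-fold lower in NM than in OM. A second PRAC probe stayed at background on all 3 arrays, at 26.3, 13.8 and 14.3 a.u. BC035260 in the HOXC cluster was 2.15-fold lower in MB than in OM, and the unnamed probe A_24_P834210 in the HOXB cluster was 2.39-fold lower in MB than in NM.

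**Figure D5:**
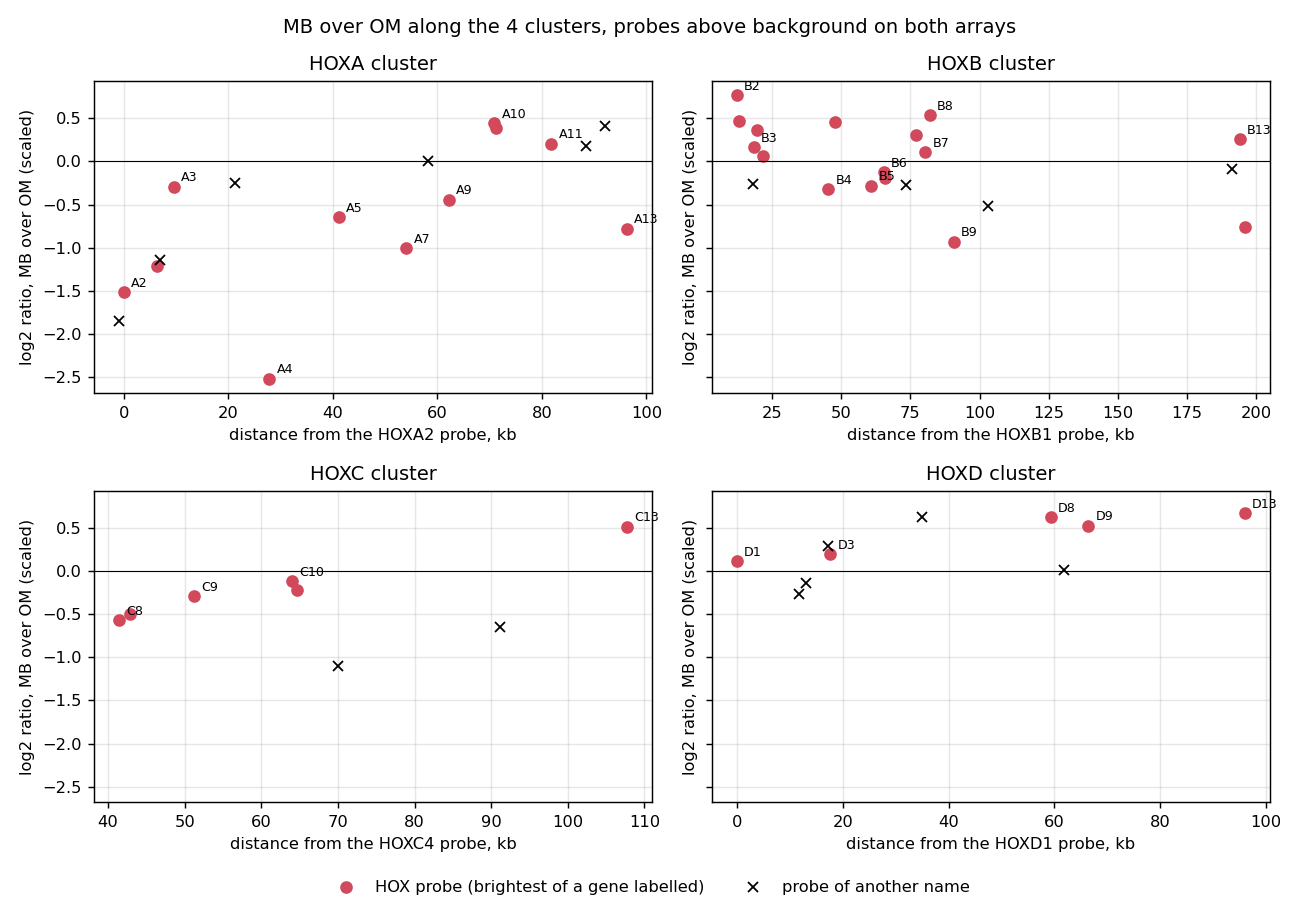
Scaled log2 ratio of MB to OM against distance (kb) from the probe of the lowest-numbered gene shown in each cluster, for HOX probes (red, with the brightest probe of each gene labelled) and probes of other names (crosses), above background on both arrays. In HOXA the points from HOXA2 to HOXA9 and the crosses beside HOXA2 and HOXA3 lie below 0, and in HOXD the labelled genes lie above it (3 of 5 with spike-in scaling).

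Partners of HOX proteins were present in every state. The 8 TALE genes reported here were above background on all 3 arrays. PBX2 gave 307, 691 and 145 a.u., 2.30-fold higher in MB than in OM and 4.29-fold higher than in NM. PBX4 gave 862, 390 and 1181 a.u., 2.16-fold lower in MB than in OM and 3.37-fold lower than in NM. The 2 genes thus differed in opposite directions. A second PBX2 probe was also higher in MB, by log2 ratios of 0.32 against OM and 0.83 against NM. PBX3, MEIS1, MEIS2, MEIS3, PKNOX1 and PKNOX2 did not pass 2-fold with their brightest probes. The second MEIS2 probe did, with log2 ratios of 1.24 for MB to OM and 2.12 for MB to NM. For MEIS1, a cofactor of HOXA9, the signals were 633, 685 and 586 a.u.

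The proteins that hold HOX genes on and off were measured with the same rule. By their brightest probes, 1 of 20 Polycomb genes was 2-fold or more higher in MB than in OM and none lower. The shares of all genes were 6.66% and 4.65%. The gene was BMI1, a core subunit of Polycomb repressive complex 1, at 4782 a.u. in OM, 10384 in MB and 5781 in NM. Against NM, PHF19 (2.52-fold), CBX6 (2.82-fold) and CBX8 (2.28-fold) were higher in MB, 3 of 19 beside 12.9% of all genes. None was 2-fold lower, beside 10.3%. PHF19 did not pass 2-fold with its second probe (log2 ratio 0.83). PHF1 was 2.08-fold higher in NM than in OM. Second probes of RNF2 and EZH2 passed 2-fold where their brightest did not. RNF2 was at 1.20 for MB to OM, and EZH2 at 2.60 for MB to NM and -1.67 for NM to OM. Of 12 Trithorax and H3K27 demethylase genes, ASH1L was higher in MB than in both monolayers (236, 483 and 127 a.u.), and KMT2A (2.13-fold) and KMT2D (2.64-fold), which methylate H3K4, were higher in MB than in NM. For MB to NM, one KMT2A probe (log2 ratio 0.67) and the second KMT2D probe (0.12) did not pass 2-fold. Another KMT2A probe was more than 2-fold lower in MB and in NM than in OM. The brightest KMT2A probe was at 0.92 for MB to OM and -0.17 for NM to OM. The second ASH1L probe did not pass 2-fold for MB to OM (log2 ratio 0.96) and had no ratio of MB to NM. The brightest probe of PSIP1, which tethers KMT2A to chromatin at HOX genes, was 2.57-fold lower in MB than in NM, at 34528 a.u. in OM, 25642 in MB and 59173 in NM, while its other probes were at -0.22 and -0.58 on the log2 scale.

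Retinoic acid is the best known inducer of the head-end HOX genes, and 3 of the 12 genes of its pathway measured between MB and OM were 2-fold or more higher in MB, beside 6.66% of all genes, with none lower by the brightest probe, beside 4.65%. RXRG, a nuclear receptor that partners retinoic acid receptors, was not well above background on OM or NM (5.77 and 11.4 a.u.) and gave 233 a.u. on MB, at least 11.4-fold higher than on OM. CYP26B1, which breaks retinoic acid down, gave 3041 a.u. in OM, 9322 in MB and 2470 in NM. DHRS3, which returns retinaldehyde to retinol, gave 5502, 20908 and 12496 a.u. Against NM, RXRA (2.67-fold), RXRG (at least 7.19-fold) and CYP26B1 (3.39-fold) were higher in MB, and CRABP2 (2.11-fold) and ALDH1A3 (2.17-fold) were lower. A second RXRA probe went the other way, with log2 ratios of -1.50 for MB to NM and -0.83 for MB to OM, so that RXRA has no settled direction. CRABP2, a carrier protein of retinoic acid, was 3.36-fold higher in NM than in OM, and DHRS3 2.59-fold higher. ALDH1A3, an enzyme that makes retinoic acid, was at 67565 a.u. in OM, 41719 in MB and 81166 in NM. Its second probe had log2 ratios of -1.66 for MB to OM and -1.07 for MB to NM. For NM to OM the second probe was at -0.60 and the brightest at 0.45, so that this direction is not settled.

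Of the other regulators of HOX genes, CDX2 gave 338 a.u. in OM, 251 in MB and 152 in NM and did not pass 2-fold, while CDX1 and CDX4 stayed at background throughout. EGR2, which switches on HOXA2 and HOXB2 in the hindbrain, gave 987 a.u. in OM, 2051 in MB and 1965 in NM, 2.13-fold higher in MB than in OM and 2.27-fold higher in NM than in OM. EVX1, the homeobox gene at the tail end of the HOXA cluster, gave 1757, 1090 and 2020 a.u. and was 2.06-fold lower in MB than in NM. Whether any of these genes has a part in the HOX values was not tested.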

How the data were processed

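Gene expression was measured on Agilent 1-colour 4 × 44K arrays, 1 for each of 3 states, all on a single slide. The authors deposited the intensity of each spot from Feature Extraction 9.5.3.1 (9.5 in the submitters' processing notes), with the local background subtracted and no scaling between arrays. The deposited series value table holds the same intensities (130128 of 130128 within 0.1%). Control and outlier spots were left out, spots of a probe were averaged, and arrays were scaled to GAPDH, ACTB and HSP90AA1 (arithmetic mean of the 3). HSP90AA1 was chosen for the HSP90 named in the methods. The methods' threshold is 5-fold, with signals above 100 a.u., and 2-fold was added as a smaller size.

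A gene was above background where any of its probes was flagged so, and its ratio came from its brightest probe. Where the dimmer array was not above background, a bound was taken from its own signal there or the array's floor, whichever was higher (the floor, the lowest signal of probes above background, was 20.9 a.u. in OM, 19.4 in MB and 29.1 in NM). Values are printed for HOX genes above background with a signal over 100 a.u. (26 genes). HOXA6, HOXA7 and HOXC5 were added after their values were seen. Genes of other lists are named where past 2-fold, with the TALE genes. A few genes are counted but not reported singly here. HOX genes, lists and rules were chosen with earlier results of these data known.

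Gene names are those of the array. Of the 52 HOX probes, 50 matched the RefSeq table (GRCh38.p14) by accession, all to the same gene. KDM6B and EVX2 were not matched on the array and are not analysed here. Positions are from the files, in build hg17. Scripts used Python 3.11.15, pandas 2.3.3, matplotlib 3.10.9, R 4.3.3 and limma 3.58.1 (normexp, offset 50), and were tested on simulated data. Alternatives were other scalings (75th percentile, none, quantile, geometric mean, 7 spike-in probes), other background treatments, other probe rules and other calls of detection. With 1 array per state there is no p-value.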

Additional observations from a re-analysis of the deposited data

How the results depend on the processing

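Of 86 ratios of single HOX genes, 18 changed sign under at least 1 alternative (7 for MB over OM, 1 for MB over NM and 10 for NM over OM), none of them over 0.36 in size on the log2 scale, and no ratio past 2-fold changed sign. No paired analysis was possible because there was 1 array per condition, and for the same reason no replicate could be left out. All arrays shared 1 slide, so slide could not enter as a block. The number of HOX genes 2-fold or more lower in MB than in OM was 3, and became 5 with scaling to the 75th percentile and 7 with scaling to spike-in probes. Those 2-fold lower in NM than in OM rose from 3 to 5 with no scaling, and those 2-fold higher in MB than in NM fell from 2 to 1 with normexp correction. The median log2 ratio of MB to OM moved from -0.12 to -0.31 (75th percentile) and -0.43 (spike-in). That of MB to NM moved from 0.25 to 0.14 (75th percentile), 0.37 (no scaling), 0.0864 (quantile) and 0.0858 (spike-in). That of NM to OM moved from -0.18 to -0.30 (no scaling) and -0.36 (mean over all probes of a gene). The median of all genes moved with the scaling, and the HOX median relative to it stayed between -0.25 and -0.09 for MB over OM. The other 113 values of these results stayed within the limits set for them, 1.5 times a count or 1 SD of single spots for a median. Of single genes, 577 ratios moved by less than the spot spread, 264 by more, 13 crossed to past 2-fold and 5 fell under it. With detection as a signal above the local background by the scanner's significance flag, 32 HOX genes were detected on all arrays and 3 on none, and with a limit of 100 a.u. 24 and 13. With the flag the call differed between arrays for HOXB1, HOXC4, HOXD4 and HOXD10. With the limit it differed for HOXA4 and HOXA13, both under 100 a.u. on MB alone.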
